A study of Mus musculus with 7 samples.

Results

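Antioxidant enzymes turn reactive oxygen species into water and repair the oxidised proteins and lipids they leave. Superoxide dismutases convert superoxide to hydrogen peroxide, and catalase, the peroxiredoxins and the glutathione peroxidases then remove the peroxide. Thioredoxin, recharged by thioredoxin reductase with electrons from NADPH, keeps most peroxiredoxins active. In oocytes and cleaving embryos these transcripts are known in part as a maternal store, which is later replaced by transcription from the embryo's own genome.

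Transcripts of 10 such enzymes were followed here in single mouse embryos, namely the peroxiredoxins Prdx1, Prdx2, Prdx3 and Prdx5, the superoxide dismutases Sod1 and Sod2, the glutathione peroxidase Gpx4, thioredoxin (Txn1), thioredoxin reductase 1 (Txnrd1) and catalase (Cat). They were taken by symbol from a table of raw read counts with 26586 rows, and all 10 were found. In GRCm38 (GENCODE M21) Prdx1 lies at chr4:116685544-116700822, Prdx2 at chr8:84969587-84974834, Sod1 at chr16:90220754-90226329, Sod2 at chr17:13006846-13040063, Gpx4 at chr10:80047166-80056439 and Txnrd1 at chr10:82833951-82897712, all on the plus strand. Prdx3 (chr19:60864051-60874556), Prdx5 (chr19:6906697-6910106), Txn1 (chr4:57943373-57956411) and Cat (chr2:103453849-103485160) lie on the minus strand. The 7 embryos were morulae of the C57BL/6 background, taken at 3 days post coitum from pregnant L13a+/- mice in crosses of L13a+/- parents (L13a is Rpl13a, a ribosomal protein gene), with no treatment. The labels put all 7 in 1 group and state neither genotype nor litter, so there were no groups to compare, and genotypes were not inferred. Each embryo was lysed whole, its RNA input was evened out, and polyadenylated RNA was amplified with SMART-Seq v4, which uses no molecular identifiers.

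The libraries were very unequal in depth, with totals from 139619 counts in embryo 6 to 33123742 in embryo 4. Embryos 1 to 7 had a count in 5121, 9383, 3486, 12064, 3388, 1749 and 8953 genes. A count of 0, read throughout as under 3 counts, allows up to 0.0906 CPM (the count of a gene scaled by the library total) in embryo 4, but up to 21.5 CPM in embryo 6 and 4.13 CPM in embryo 3. These limits, and the 95% intervals below, cover counting error only. In a whole embryo, fewer cells that express a gene and less RNA per cell cannot be told apart. The morula label was checked against 6 pluripotency markers (Pou5f1, Nanog, Sox2, Klf4, Tdgf1 and Dppa5a). All 6 were counted in embryo 4, 4 in embryo 7, 3 in embryo 2, 2 in embryo 5, 1 each in embryos 1 and 3, and 0 in embryo 6, and Pou5f1 was at 0 in embryos 1, 3, 5 and 6. Of 8 oocyte markers, 8 were counted in embryos 2 and 7 and 3 in embryo 5. Their summed level ran from 674 CPM in embryo 5 to 17260 CPM in embryo 7, with Omt2b the most abundant by mean. In embryo 4 they summed to 4071 CPM, of which Dppa3 held 4059 CPM. The next there was Gdf9 at 6.19 CPM, with Omt2b at 1.57 CPM and Btg4 at 0.

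Gpx4 and Txnrd1 are selenoproteins: an in-frame UGA codon in their messages is read as selenocysteine, the residue that does the chemistry, where it would otherwise stop translation. The coding bases around that codon are shown because they set these transcripts apart from the rest of the set, with the codon in capitals. They were read 5′ to 3′ from GENCODE M21 transcripts of GRCm38. In Gpx4 it is codon 73 of the principal transcript, at chr10:80054737-80054739 on the plus strand, with 30 coding bases on each side. In Txnrd1 it is codon 498 of the principal transcripts, at chr10:82896037-82896039 on the plus strand, 6 bases from the end of the coding sequence.
Gpx4: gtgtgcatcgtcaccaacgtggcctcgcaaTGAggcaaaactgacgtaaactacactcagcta
Txnrd1: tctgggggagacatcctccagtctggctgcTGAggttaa

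Many antioxidant genes are known targets of NRF2, a stress-responsive factor that binds antioxidant response elements. RefSeq promoter windows of GRCm38.p6, from 250 bases before to 50 bases after a start site, were on hand for all 10 genes, 15 windows in all. The core letters TGACNNNGC, searched on both strands, occurred in 3 of these windows, those of Prdx1, Sod1 and the second of 3 Txnrd1 starts, against 12.4% of all 32851 windows in the RefSeq table. They are shown as the windows that held a match. Over the 7 embryos Prdx1 and Sod1 had r of 0.880, and Txnrd1 had r of 0.350 and -0.08 with them, as described below. In embryos 5 and 6 Sod1 had no count, and Prdx1 had 26 and 0. In embryo 3 Sod1 was at its highest, while Prdx1 was lower than in embryos 1, 2, 4 and 7. Capitals mark the match, which lies on the minus strand of each window. In Prdx1 (chr4:116685349-116685648, plus strand) the match begins at position -133 from the start site and overlaps a match to the AP-1 letters TGANTCA at -131. The window holds a second AP-1 match at -237, and 7.81% of all windows hold these letters. In Sod1 (chr16:90220512-90220811, plus strand) it begins at -56, and in Txnrd1 (chr10:82858956-82859255, plus strand) at -92. A match in letters is not evidence of binding.
Prdx1: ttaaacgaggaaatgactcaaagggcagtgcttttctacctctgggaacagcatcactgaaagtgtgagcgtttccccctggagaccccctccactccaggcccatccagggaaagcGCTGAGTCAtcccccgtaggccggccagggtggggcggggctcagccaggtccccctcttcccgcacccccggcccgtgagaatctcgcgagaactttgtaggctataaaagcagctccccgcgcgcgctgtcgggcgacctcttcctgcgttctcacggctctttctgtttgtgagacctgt
Sod1: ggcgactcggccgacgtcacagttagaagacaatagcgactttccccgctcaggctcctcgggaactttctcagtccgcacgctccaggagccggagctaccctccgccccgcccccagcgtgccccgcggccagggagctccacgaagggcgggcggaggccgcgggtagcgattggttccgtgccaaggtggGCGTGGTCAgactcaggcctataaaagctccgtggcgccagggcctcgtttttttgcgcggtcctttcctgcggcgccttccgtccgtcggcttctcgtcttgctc
Txnrd1: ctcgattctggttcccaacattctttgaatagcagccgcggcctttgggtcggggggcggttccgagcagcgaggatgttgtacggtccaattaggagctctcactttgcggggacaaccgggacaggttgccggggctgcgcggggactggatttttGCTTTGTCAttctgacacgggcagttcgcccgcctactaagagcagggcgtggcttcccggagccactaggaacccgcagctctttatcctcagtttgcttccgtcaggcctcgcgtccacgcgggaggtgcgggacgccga

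The embryos drew their summed level of these transcripts from different enzymes. The 10 genes together held 2022, 3618, 2039, 4063, 3461, 2822 and 2788 CPM in embryos 1 to 7, a mean of 2973 ± 783 CPM (SD, n = 7). The highest total was 2.01-fold above the lowest, or 3.32-fold with normalization factors (TMM) applied. The leading gene differed from embryo to embryo. Prdx2 led in embryos 1, 2 and 7 with 49.2, 49.0 and 74.5% of the summed counts, Prdx3 led in embryo 3 with 70.5%, Prdx1 in embryo 4 with 32.7%, and Gpx4 in embryos 5 and 6 with 92.7 and 50.5%. Without the leading gene of each embryo, the rest summed to between 254 CPM in embryo 5 and 2735 CPM in embryo 4, a 10.8-fold range. Embryo 4 was the embryo in which all 10 were counted. The others had 6, 9, 4, 6, 3 and 8 in embryos 1, 2, 3, 5, 6 and 7, and none of the 10 was counted in all 7 embryos, against 3.69% of the 11810 genes whose mean CPM was at least 1. In the 5 deeper libraries, without embryos 3 and 6, 4 of the 10 were counted in every embryo (Prdx1, Prdx5, Sod2 and Gpx4), against 14% of those genes. With all libraries thinned at random to 139619 counts, 5, 8, 4, 10, 4, 3 and 6 of the 10 retained a count in embryos 1 to 7.

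**Figure D1:**
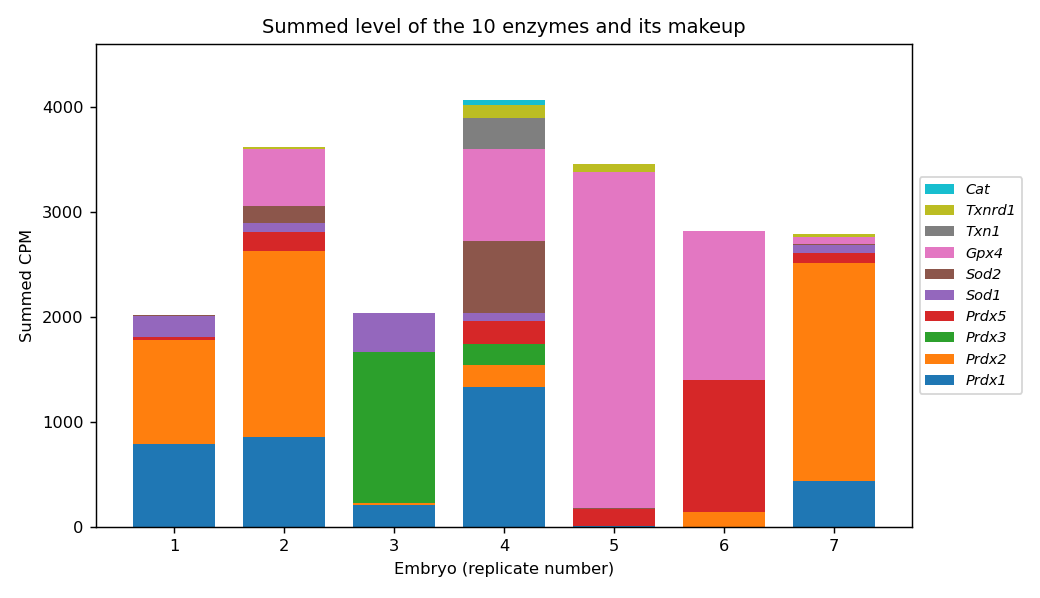
Summed CPM of the 10 enzymes (vertical axis) in each embryo (horizontal axis), with 1 coloured segment per gene and no error bars, since each bar is 1 library. Totals lie between 2022 and 4063 CPM, while the leading gene changes from Prdx2 to Prdx3, Prdx1 or Gpx4.

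Prdx1, an abundant cytosolic peroxiredoxin, was counted in 6 of 7 embryos. Its level was 787, 860, 209, 1328, 9.41, 0 and 435 CPM in embryos 1 to 7. Embryos 1, 2, 4 and 7 were high, embryo 3 was lower, and embryo 5 had 26 counts (95% Poisson interval 6.14 to 13.8 CPM). The level in embryo 4 was 141-fold above that in embryo 5. The count of 0 in embryo 6 allows up to 21.5 CPM, below the lower bound of embryo 3 (177 CPM).

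Prdx2, the other main cytosolic peroxiredoxin, best known from red blood cells, stood at 996, 1772, 19.3, 215, 0, 143 and 2078 CPM in embryos 1 to 7. Embryos 1, 2 and 7 were again high, but embryo 4, the highest for Prdx1, held 215 CPM (210 to 220). Embryo 5 had no Prdx2 count, which allows up to 1.09 CPM. Of 5 erythrocyte marker genes in the table, 0 to 3 were counted per embryo and they summed to at most 15.3 CPM, in embryo 2, where Hba-a2 held 5.53 CPM. Prdx2 shares 173 exonic bases with Junb and 177 with Rnaseh2a on the opposite strand, and whether the counting used strand is not stated, so reads in these bases cannot be told apart. Junb and Rnaseh2a held at most 32.5 and 86.0 CPM, both in embryo 4, and embryos 1, 2 and 7 had at most 8.41 CPM of either.

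Prdx3, the mitochondrial peroxiredoxin, showed the widest spread of the set on the log2 scale over all 7 libraries (SD 5.40). Over the 5 deeper libraries its SD was 4.58, and Prdx2 had the widest, 5.81. It stood at 0, 0.304, 1439, 199, 0, 0 and 0 CPM in embryos 1 to 7. Embryo 3, from a library of 725729 counts, held 1044 Prdx3 counts, and embryo 4 held 6579. Embryo 2 had 5 counts among 16452890, and embryo 7 had none among 17122136, where 3 counts equal 0.175 CPM. Both of these libraries were deeper than that of embryo 3.

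Prdx5, an atypical peroxiredoxin found in mitochondria, peroxisomes and cytosol, stood at 24.5, 176, 0, 217, 157, 1253 and 93.4 CPM in embryos 1 to 7. Embryo 6 was high, with 175 counts (1075 to 1454 CPM), and embryo 3 was low. The remaining 5 embryos lay within 1 order of magnitude. Over the 5 deeper libraries its SD of log2 CPM was 1.29, against 3.88 over all 7. Prdx5 shares 409 exonic bases with Trmt112 on the opposite strand. Trmt112 had no count in embryos 5 and 6, where Prdx5 held 433 and 175, and none in embryo 3. It stood at 58.6, 81.1, 177 and 279 CPM in embryos 1, 2, 4 and 7, above Prdx5 in embryos 1 and 7. Whether reads were shared between them was not determined.

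The makeup of the peroxiredoxin family showed the same turnover. Among the counts of Prdx1 to Prdx6, the Prdx1 share was 43.5% (exact Clopper-Pearson 95% bounds of 41.4 and 45.7), 24.7% (24.3 to 25.0), 12.6% (10.7 to 14.6), 41.9% (41.6 to 42.2), 5.66% (3.73 to 8.19), 0% (up to 1.87) and 16.2% (15.9 to 16.6) in embryos 1 to 7. Prdx2 held 55.1, 50.9 and 77.5% in embryos 1, 2 and 7, and 6.78% in embryo 4. Prdx3 held 86.3% (84.2 to 88.2) in embryo 3. Prdx5 held 94.3% (91.8 to 96.3) in embryo 5 and 89.7% (84.6 to 93.6) in embryo 6. The cytosolic enzyme Prdx6, which reduces phospholipid peroxides and is not among the 10, held 32.7% in embryo 4 and 2.15% in embryo 2, and had no count in the others.

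**Figure D2:**
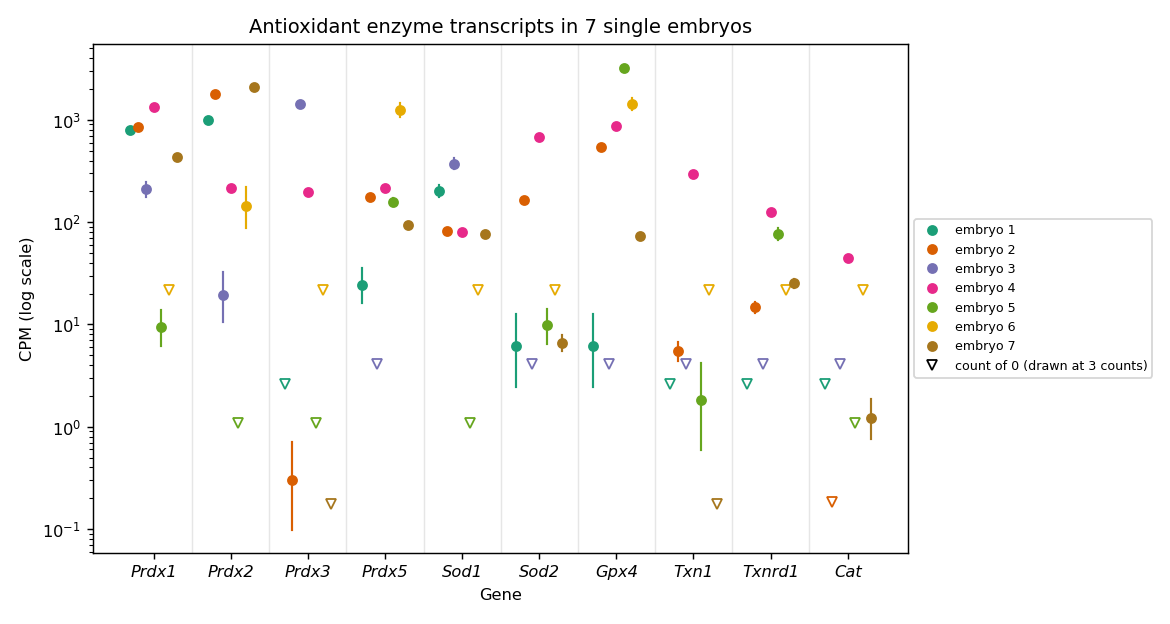
CPM of each enzyme (vertical axis, log scale) by gene (horizontal axis), with 1 colour per embryo, bars for 95% Poisson intervals, and open triangles at the CPM of 3 counts where the count was 0. Many embryos lie further apart than their counting intervals, such as 9.41 and 1328 CPM for Prdx1 in embryos 5 and 4, while others overlap, such as Sod1 in embryos 2, 4 and 7.

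Sod1, the cytosolic copper-zinc dismutase, had the most even level of the 10 among embryos that had a count. It stood at 203, 81.0, 372, 80.4, 0, 0 and 76.8 CPM in embryos 1 to 7. Embryos 2, 4 and 7 had overlapping intervals (76.7 to 85.5, 77.4 to 83.5 and 72.7 to 81.1 CPM), and the highest, embryo 3, was 4.84-fold above the lowest of the 5. The count of 0 in embryo 5 allows up to 1.09 CPM and that in embryo 6 up to 21.5 CPM, so both lay below the other 5.

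Sod2, the mitochondrial manganese dismutase, had a different distribution, at 6.12, 164, 0, 686, 9.77, 0 and 6.60 CPM in embryos 1 to 7. Embryos 2 and 4 were high. The intervals of embryos 1, 5 and 7 overlapped (2.46 to 12.6, 6.44 to 14.2 and 5.44 to 7.93 CPM). Sod1 held 97.1% (94.1 to 98.8), 33% (31.6 to 34.5), 100% (98.6 to 100), 10.5% (10.1 to 10.9), 0% (up to 12.8) and 92.1% (90.6 to 93.4) of the counts of both dismutases in embryos 1, 2, 3, 4, 5 and 7. Embryo 6 had no count of either. Divided by merged exon length (3970 bases for Sod1 and 10008 for Sod2), the Sod1 share of embryo 2 became 55.4% and that of embryo 4 became 22.8%, so which dismutase led in embryo 2 depended on the length used.

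Gpx4, which reduces lipid hydroperoxides in membranes, reached the highest single level of the set. It stood at 6.12, 544, 0, 871, 3206, 1425 and 72.4 CPM in embryos 1 to 7. Embryo 5 held 8864 Gpx4 counts in a library of 2764409, and embryo 6 held 199 (1234 to 1638 CPM). Embryos 1 and 3 were low, with 7 and 0 counts. Of the counts of Gpx1, Gpx3 and Gpx4, Gpx4 held 99.5 and 99.0% in embryos 5 and 6, 45.3 and 52.4% in embryos 2 and 4, 15.9% in embryo 7 and 1.64% in embryo 1. Gpx1, the cytosolic glutathione peroxidase, had 94.4, 382, 0, 786, 17.4, 0 and 94.7 CPM. Gpx4 has a transcribed processed pseudogene, Gpx4-ps2, and Txn1 has the pseudogene Txn-ps1. The count table has no row for either, and whether reads were shared was not determined.

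In embryo 6, where Prdx5 and Gpx4 made up 94.9% of the summed counts, some markers of maternal tissue were also high. Others had no count there. The 7 oviduct and uterine epithelium markers summed to 4340 CPM in embryo 6, and to between 1.81 and 1866 CPM in the other embryos. The sum in embryo 6 came from 3 counted members (Lcn2, Ltf and Wfdc2), with Ovgp1, Muc1, Epcam and Foxj1 at 0. The 5 stroma markers summed to 4348 CPM in embryo 6 and to at most 88.9 CPM elsewhere. Nearly all of this was Dcn, with Col1a1 at 107 CPM and Col1a2, Col3a1 and Pdgfra at 0. Any part of maternal tissue in the Prdx5 and Gpx4 levels of embryo 6 was not tested. In embryo 5, with the highest Gpx4 level, the epithelium markers summed to 1.81 CPM and the stroma markers to 0. The 5 white blood cell markers summed to at most 129 CPM, from 18 Csf1r counts in embryo 6, and 0 of 6 cumulus and granulosa markers had a count in any embryo. The 6 trophectoderm markers ranged from 2.76 CPM in embryo 3 to 3436 CPM in embryo 4 and 3065 CPM in embryo 6, where Dab2 was the 1 member counted, with Cdx2 at 0 in all embryos but embryo 4.

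Thioredoxin, Txn1, was abundant in 1 embryo. It stood at 0, 5.47, 0, 298, 1.81, 0 and 0 CPM in embryos 1 to 7. Embryo 4 held 9861 counts, embryo 2 held 90, and embryo 7 held none, where a count of 0 allows up to 0.175 CPM. The mitochondrial thioredoxin Txn2 was counted more widely, at 78.7, 218, 0, 281, 0, 7.16 and 359 CPM. Of the counts of both thioredoxins, Txn1 held 51.4% (50.7 to 52.1) in embryo 4, 2.44% (1.97 to 3.00) in embryo 2 and 0% (up to 0.0601) in embryo 7.

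Txnrd1, the cytosolic reductase that recharges thioredoxin, was counted in 4 embryos, at 0, 14.6, 0, 125, 76.7, 0 and 25.2 CPM in embryos 1 to 7. Their 95% intervals did not overlap. Embryos 5 and 7 held 212 and 431 Txnrd1 counts while Txn1 held 5 and 0. Cat, the peroxisomal catalase, was the least abundant of the 10 by mean. It had 1490 counts (45.0 CPM) in embryo 4, 21 (1.23 CPM) in embryo 7 and 0 in the others, of which embryo 2 allows up to 0.182 CPM and embryo 6 up to 21.5 CPM.

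Compared per length of merged exons, the order of median levels over the 7 embryos was Gpx4 (315 CPM per kb), Prdx1 (143), Prdx5 (73.2), Prdx2 (70.5), Sod1 (20.3), Txnrd1 (2.07) and Sod2 (0.659), followed by Prdx3, Txn1 and Cat with medians of 0. Since each gene was at 0 in at least 1 embryo, the ranges of all neighbours in this order overlapped. Per length, Gpx4 took the lead from Prdx1 in embryo 4 (505 against 436 CPM per kb), and the leading gene of the other 6 embryos was the one named above.

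The spread of the enzymes over embryos was wide. In log2 CPM with TMM factors and a prior count of 2, Prdx1 averaged 6.88 ± 4.62, Prdx2 6.95 ± 4.74, Prdx3 1.33 ± 5.40, Prdx5 6.03 ± 3.88, Sod1 4.50 ± 4.53, Sod2 3.21 ± 4.48, Gpx4 6.86 ± 4.99, Txn1 0.64 ± 4.06, Txnrd1 2.38 ± 4.30 and Cat -0.54 ± 3.03 (SD, n = 7). The median SD of the 10 was 4.51, with a jackknife error over embryos of 0.61, and that of the 11810 genes was 3.63. Without embryos 3 and 6 it was 3.76, against 3.82 for all genes, so the excess was not seen in the 5 deeper libraries. It remained without embryo 3 alone (4.27 against 3.77) and without embryo 6 alone (4.28 against 3.68). With all libraries thinned to the same total the medians were 2.31 against 1.25, but there the same prior count stands for more CPM. The 11810 genes were not matched to the enzymes in abundance. These medians therefore cannot tell a wider spread from a difference in abundance. In edgeR's quasi-likelihood test of each gene's dispersion against genes of like abundance, 0 of the 10 passed at an adjusted p of 0.05, and percent called over all genes was 0. The lowest adjusted p among the 10 was 0.869, and 67 of 11810 genes had an unadjusted p under 0.05, none of them a member. On simulated data, with the common dispersion of these libraries for every gene, neither this test nor the slope test below recovered changed genes. Their counts of 0 therefore do not show that the enzymes are like other genes or unrelated to Rpl13a. Since litters are not stated, the p-values here measure no more than sample-to-sample spread, and part of it may be technical.

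**Figure D3:**
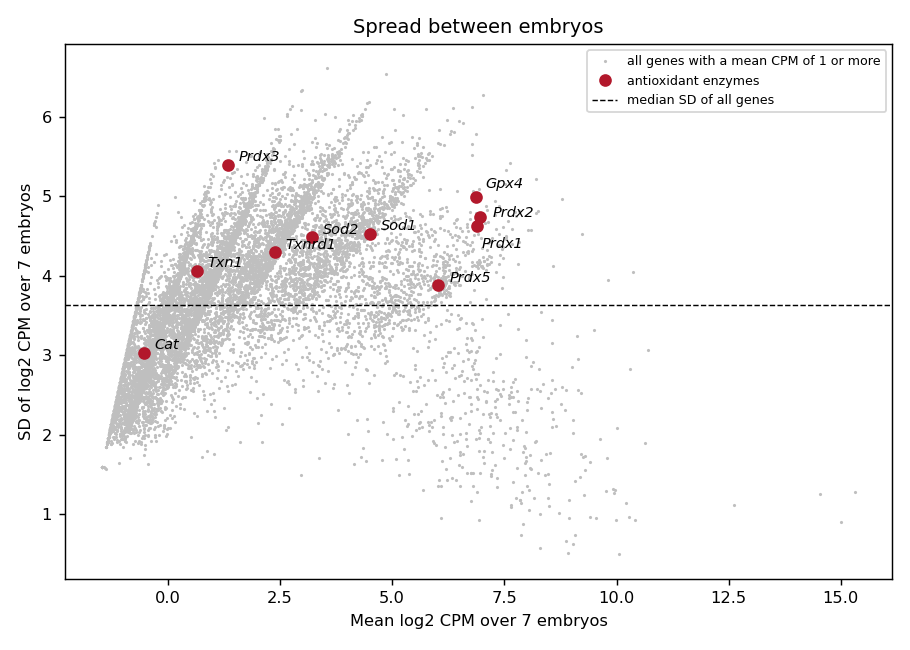
SD of log2 CPM over the 7 embryos (vertical axis) against the mean log2 CPM (horizontal axis), with 1 grey point per gene of mean CPM at least 1 and red points for the 10 enzymes. Of the 10, 9 lie above the dashed line at the median SD of 3.63, and Cat lies below it.

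The series concerns crosses of Rpl13a mutants, so the enzymes were also set against the Rpl13a level of the same embryo. Rpl13a stood at 86.5, 119, 5.51, 530, 3.26, 7.16 and 23.5 CPM in embryos 1 to 7. Embryos 3, 5 and 6 had 4, 9 and 1 Rpl13a counts, so the low end of every slope rests on values near the floor. The 95% interval in embryo 6 was 0.181 to 39.9 CPM. Embryo 4 was highest in Rpl13a, in library total and in genes with a count. Embryos 3, 5 and 6 were lowest in Rpl13a and in genes with a count. A slope on Rpl13a therefore cannot be told apart from one on the number of genes counted. None of the 10 passed edgeR's quasi-likelihood test of the slope on log2 Rpl13a (adjusted p from 0.187 to 0.969). Percent called over the 11810 genes was also 0, with 2365 at an unadjusted p under 0.05. On simulated data with the common dispersion (9.03) for every gene, this test recovered 0 of 200 genes given a slope of 1. Power at gene-by-gene dispersions was not simulated, so these counts of 0 do not show that a relation is absent. In edgeR the steepest slopes were those of Cat, 1.34 ± 0.67 (SE, adjusted p 0.237 in edgeR), Txn1, 1.10 ± 0.50 (adjusted p 0.187), and Sod2, 1.02 ± 0.50 (adjusted p 0.224). Those of Prdx3, Gpx4 and Prdx5 were below 0, at -0.18 ± 0.41, -0.13 ± 0.39 and -0.06 ± 0.43, all within 1 SE of 0. Sign and order depended on the scaling. In limma on the authors' quantile-normalized log2 table the slopes of these 3 were above 0 (0.88, 1.07 and 0.73), those of Prdx2 and Sod1 were below 0 (-0.07 and -0.12), and that of Cat was 0.37. DESeq2 put Txn1 (0.93) above Cat (0.89) and Sod2 (0.87). In edgeR the slope was positive for 7 of the 10, with a median of 0.48, and for 76.1% of all genes, with a median of 0.73. DESeq2's Wald test passed 0 of the 10 and 5.21% of 9520 genes, and limma on the authors' log2 table passed 0 genes, with 1127 at an unadjusted p under 0.05. Without embryo 7, Cat passed (adjusted p 0.0444 in edgeR), as did 1726 of 11219 genes. Cat then had a count in embryo 4 alone, the embryo with the highest Rpl13a level and library total. That slope therefore rests on a single library against counts of 0.

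The pairs of enzymes with the highest r across embryos crossed the families. Of the 45 pairs, 34 had a positive Pearson r of log2 CPM over the 7 embryos and 3 had an r over 0.8. These were Prdx5 with Gpx4 (r 0.925, Spearman's rho 0.75), Prdx1 with Sod1 (r 0.880, rho 0.523) and Sod2 with Txn1 (r 0.867, rho 0.915). The lowest was Sod1 with Gpx4 (r -0.639, rho -0.721). Txnrd1 was closest to Sod2 (r 0.795, rho 0.860). These values describe 7 points that share library depth and many counts of 0, and they carry no test. Among the 5 embryos with a Sod1 count, embryo 3 was highest for Sod1 and lowest for Prdx1. Prdx1 had a median r of 0.446 with all genes, Sod2 0.542 and Prdx3 0.109.

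Among 7707 other genes that averaged at least 10 CPM, those most like each enzyme had r of 0.966 or more. For Prdx1 these were the replication licensing factor Cdt1 (r 0.996, rho 0.964) and Ndfip2 (r 0.990, rho 0.964), and for Prdx2 Atad2b (r 0.989, rho 0.964) and D17Wsu92e (r 0.982, rho 0.929). Cdt1 stood at 176, 109, 64.8, 268, 5.06, 0 and 72.1 CPM in embryos 1 to 7. For Prdx5 they were the selenoprotein gene Sepw1 (r 0.977, rho 0.75) and Ptdss2, a phosphatidylserine synthase (r 0.976, rho 0.964). For Gpx4 they were the elongin subunit Tceb2 (r 0.994, rho 0.964) and the translation factor Eif4b (r 0.966, rho 0.929), and Tceb2 peaked in embryo 5 at 2403 CPM. For Sod1 they were Thoc1 of the mRNA export machinery and the small GTPase Rab2a (r 0.998 each), for Sod2 the deubiquitinase Usp10 and Eif3f (r 0.975 and 0.974), for Txn1 Zfpl1 and Eif3g (r 0.997 each), and for Txnrd1 the glycine cleavage enzyme Gldc and cytochrome c1 (Cyc1; r 0.995 and 0.993). The genes most like Prdx3 were Ppp1r16a and Wdr4, and those most like Cat were Gsta4, a glutathione transferase, and Atg7. Their r of 0.999 or more rested on the few embryos with a count of Prdx3 (3 embryos) or Cat (2 embryos). Txn1 and Txnrd1 likewise had a count in only 3 and 4 embryos. Each gene named here was picked for the highest r among 7707 over 7 embryos. A high r was favoured by that choice and carries no test.

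Other genes of redox metabolism were taken from 6 lists with 63 genes, all found in the table (Msrb1 under its older symbol Sepx1). Of these, 59 had a mean CPM of 1 or more, and 0 passed the edgeR slope test in either direction or the edgeR dispersion test. Their median slope on Rpl13a was 1.05 and their median SD 3.81. The 9 other peroxidases and dismutases summed to 0 CPM in embryo 3, 19.9 in embryo 5, 50.1 in embryo 6 and 2085 in embryo 4. Led by Gsto1, an omega-class glutathione transferase (2638 CPM in embryo 4), and Mgst3 (620 CPM in embryo 1), the 11 genes of glutathione synthesis and recycling summed to 1.38, 7.96 and 43.0 CPM in embryos 3, 5 and 6, and to between 485 and 3279 CPM in the other 4. The 15 thioredoxin and glutaredoxin genes were led by Txn2 and Txnl1. They summed to 241, 462, 30.3, 1377, 208, 43.0 and 676 CPM in embryos 1 to 7. Embryos 3 and 6 were low, and embryo 5 was close to embryo 1 in the sum but not in its makeup. Embryo 5 held Sepx1 (181 CPM) and Glrx3 (27.5 CPM), with Txn2 and Txnl1 at 0. Embryo 1 held mostly Glrx3 (127 CPM) and Txn2 (78.7 CPM). The 10 enzymes summed to 2039, 3461 and 2822 CPM in embryos 3, 5 and 6.

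**Figure D4:**
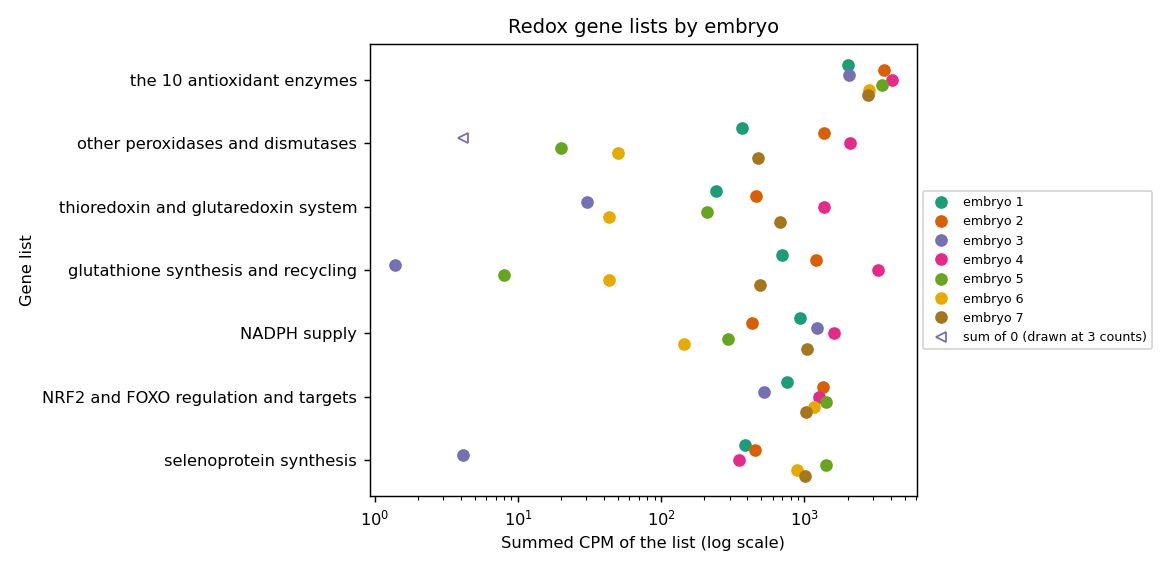
Summed CPM (horizontal axis, log scale) of the 10 enzymes and of 6 further lists (vertical axis), with 1 colour per embryo and an open triangle at the CPM of 3 counts for a sum of 0. The 10 enzymes span 2.01-fold between embryos and the NRF2 and FOXO list 2.72-fold, while the glutathione list spans from 1.38 to 3279 CPM.

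NADPH, NRF2 and selenoprotein genes had other orders of embryos. G6pdx, the first enzyme of the pentose phosphate pathway, stood at 528, 181, 1097, 42.0, 41.6, 0 and 436 CPM in embryos 1 to 7, highest in embryo 3, and the malic enzyme Me1 was counted in all 7, at between 1.82 CPM in embryo 2 and 497 CPM in embryo 7. Nfe2l2, which encodes NRF2, had 2979 counts in embryo 4 (89.9 CPM), 53 in embryo 7 and 0 in the others. Its list of 14 genes, led by Foxo1 (1117 CPM in embryo 6) and Sesn2 (563 CPM in embryo 2), summed to between 524 and 1424 CPM. Of the 7 genes of selenoprotein synthesis, Trnau1ap, which helps deliver the selenocysteine transfer RNA, stood at 66.4, 144, 1.38, 68.8, 1417, 315 and 397 CPM in embryos 1 to 7, and Sephs2, which makes the selenium donor, at 318, 178, 2.76, 80.7, 0, 573 and 421 CPM. Embryo 5 was highest for both Trnau1ap and Gpx4, and embryo 3 was lowest for Trnau1ap and had no Gpx4 count. The other genes of the list did not share this peak. In embryo 5 only 2 of the 7 had a count, Trnau1ap and Sephs1 (4.34 CPM). A link between the list and Gpx4 was not tested.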

How the data were processed

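The authors' deposited table of raw counts and their deposited log2 table were both used. Per the submitters' processing notes, HISAT2 2.0.5, featureCounts 1.5.0-p2, Subread, limma and GRCm38 were used. Which annotation, settings and strand mode they used is not stated. The log2 values were recomputed from the deposited counts as quantile-normalized log2 CPM with an offset of 0.5, to within 4.97e-14. Quantile normalization gives all embryos the same distribution of values in that table. It does not restore genes without a count in a shallow library, and 1749 genes had a count in embryo 6 against 12064 in embryo 4.

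CPM are counts over the library total. Log2 CPM use TMM factors (edgeR 4.0.16, R 4.3.3) and a prior count of 2. Tests were fitted on all 11810 genes of mean CPM 1 or more, with Benjamini-Hochberg adjustment at 0.05. edgeR's quasi-likelihood dispersion was tested against its trend with a one-sided F test, and the slope on Rpl13a with the two-sided quasi-likelihood test. DESeq2 1.42.0 and limma 3.58.1 were alternatives. Both edgeR tests were tested on simulated data. They recovered most changed genes at a low dispersion and none when every gene had the common dispersion of these libraries. Exon lengths, positions and transcripts came from GENCODE M21, and promoters from RefSeq.

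The members, lists and tests were chosen with earlier results of these data known. Named genes were the 10 members, Rpl13a, the 2 most abundant genes of each redox list, the 2 genes most like each member, and the most abundant gene of each marker list that had a count. Other genes were named after their values were seen. Alternatives covered scaling, filters, tools, thinning, exon length and each library left out.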

Additional observations from a re-analysis of the deposited data

Results flagged for a closer look

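Of 11 sets of 7 values (log2 CPM of each enzyme, and their summed CPM), 2 held an embryo whose gap to its nearest neighbour was more than 0.568 of the whole range. Chance flags about 1 in 20 sets of normally distributed values, but here all counts of 0 share the log2 value set by the prior count. That rate therefore need not hold for these sets. Prdx5 in embryo 3 stood at -2.07 log2 CPM, with 0 counts, and the gap was 0.573 of the range. Cat in embryo 4 stood at 5.95 log2 CPM, with 1490 counts, and the gap was 0.669 of the range. The 5 embryos without a Cat count share nearly the same log2 value, which is set by the prior count. The Prdx5 value of embryo 3 is set in the same way.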

How the results depend on the processing

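The count of 0 members past the dispersion test held in every alternative run, and that of 0 past the slope on Rpl13a held in all but 1, ranging from 0 to 1 when single embryos were left out (Cat without embryo 7). Without embryo 7, Cat had a count in embryo 4 alone. The cause of the pass was not tested. The median SD of the 10 enzymes, 4.51, became 5.32 with a prior count of 0.5, 3.76 without the 2 libraries of lowest total count, and 2.31 after thinning (1.25 for all genes), where the same prior stands for more CPM; it ran from 4.21 to 4.91 when single embryos were left out. The number of enzymes counted in every embryo rose from 0 to 4 without the 2 shallowest libraries and ranged from 0 to 2 without single embryos, fewer libraries being required. Of 130 alternative mean log2 CPM values of single enzymes, 129 moved by less than 1 SD between embryos, and that of Cat after thinning did not. These SDs were 3.03 to 5.40 log2 units, so the limit is loose and does not show stable levels. Leaving out 1 of 7 embryos can hardly move a mean that far. The mean of Prdx3 went from 1.33 to 5.32 after thinning and stayed within the limit. Divided by exon length, the Prdx1 share of peroxiredoxin counts was 22.7, 6.56 and 15.8% in embryos 2, 3 and 7, and the Sod1 share of dismutase counts 98.8, 55.4, 22.8 and 96.7% in embryos 1, 2, 4 and 7. The fold between the highest and lowest summed CPM, with alternatives chosen after seeing the data, was 3.32 with TMM factors and 10.8 without the leading gene of each embryo. Depth limits what counts of 0 show in embryo 6 (21.5 CPM) and embryo 3 (4.13 CPM).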
